A study of Mus musculus with 27 samples.

Results

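The genes of the voltage-gated sodium and calcium channels were followed in 2 brain regions, frontal cortex and striatum, of Igf2enh-/- mice and their wild-type controls. They were chosen by symbol alone, as the protein-coding genes of the Scn and Cacn families, and numbered 40 of the 52636 gene identifiers counted. Of these, 20 encode pore-forming subunits and 20 encode auxiliary subunits, and 14 are sodium channel and 26 calcium channel genes. Igf2enh-/- mice were homozygous for the loss of an intergenic enhancer between Igf2 and H19. The deletion was made on the 129S1 background, which the wild-type mice shared, and 1 loxP site was left behind after excision with an Hprt-CRE transgene, so every tissue carried the deletion. Mice were adults of about 2.5 months. Bulk total RNA depleted of ribosomal RNA was sequenced in 27 libraries, 6 wild-type and 6 Igf2enh-/- libraries of frontal cortex with 3 females and 3 males each, and 7 wild-type libraries (3 females and 4 males) and 8 Igf2enh-/- libraries (4 of each sex) of striatum. These numbers follow the library labels, which give 13 wild-type and 14 Igf2enh-/- libraries, whereas the series' description gives the numbers the other way round.

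Voltage-gated sodium channels open when a neuron is depolarized and carry the upstroke of the action potential. Their large alpha subunit forms the pore, and beta subunits alter gating and anchor the channel at the cell surface. Voltage-gated calcium channels turn depolarization into calcium entry, which drives transmitter release at terminals (P/Q-, N- and R-type), gene regulation and pacemaking (L-type) and low-threshold bursting (T-type). Their intracellular beta subunits and extracellular alpha2delta subunits bring the alpha1 pore to the membrane. Several of the gamma genes encode transmembrane regulators of AMPA receptors (TARPs) rather than subunits of a calcium channel in neurons. The frontal cortex is dominated by glutamatergic projection neurons and the striatum by GABAergic medium spiny neurons.

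Levels below are CPM (counts scaled to the library total) after normalization by the trimmed mean of M-values (TMM) over all 27 libraries, and levels of different genes are compared only per kilobase of exon. Differences are log2 fold changes from edgeR's quasi-likelihood test with Benjamini-Hochberg adjustment over all genes tested, and a gene was called at an adjusted p under 0.05. Libraries held 23686945 to 33926904 counts. The labelled tissues matched their markers. The 12 medium spiny neuron markers summed to 406 to 515 CPM in frontal cortex and 4368 to 11806 CPM in striatum, and the 12 cortical projection neuron markers to 2942 to 3315 CPM and 199 to 1598 CPM. Some libraries stood apart. Libraries are numbered 1 to 27 here, as in their labels. Striatal library 20 (wild type) had the lowest medium spiny neuron sum, the highest cortical projection neuron sum and the highest oligodendrocyte sum (11028 CPM). Striatal library 15 (Igf2enh-/-) held 4590.5 CPM of choroid plexus markers, against at most 366 CPM in the other libraries. Libraries 26 (wild type) and 19 (Igf2enh-/-) had 42.0 and 52.3 CPM of the thalamus marker Prkcd, while no other striatal library (13 of them) was above 14.6 CPM. The other 5 thalamus markers were not raised with it and summed to 55.1 and 67.1 CPM, against 55.7 to 80.6 CPM in those 13. In frontal cortex, library 1 (Igf2enh-/-) had the lowest oligodendrocyte sum (1038 CPM) and library 9 (Igf2enh-/-) the highest olfactory bulb sum (91.0 CPM). Igf2 itself, which lost its enhancer but kept its exons, averaged 72.8 ± 19.1 CPM (SD, n = 6) in wild-type frontal cortex and 123 ± 27.7 CPM (SD, n = 6) after the deletion.

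The first comparison asked how the channel genes differ between the 2 regions within each genotype. Most of the channel genes differed, in both directions. In wild-type mice 33 members passed the filter of 1 CPM in every library of a region, and 31 of them were called, 17 higher and 14 lower in striatum. This share has to be read against the background, since 66.6% of all genes tested were called, 34.7% higher and 31.9% lower. In Igf2enh-/- mice 29 of 33 were called, 17 higher and 12 lower, where 69.1% of all genes were called, 35.3% higher and 33.8% lower. The same 17 genes were higher and the same 11 lower in both genotypes, and no gene was called on opposite sides. The median size of the difference was 0.59 on the log2 scale over the members and 0.26 over all genes in wild-type mice, and 0.54 and 0.26 in Igf2enh-/- mice.

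Of the 15 pore-forming genes tested in wild-type mice, 7 were higher and 7 lower in striatum, and of the 18 auxiliary genes 10 were higher and 7 lower. In Igf2enh-/- mice the counts were 7 and 5 for pore-forming and 10 and 7 for auxiliary genes. The median log2 difference was -0.10 over the pore-forming and 0.30 over the auxiliary genes in wild-type mice, and -0.11 and 0.32 in Igf2enh-/- mice. Differences of at least 1 on the log2 scale in both genotypes were found for 9 genes that were higher in striatum, Scn3a, Scn9a, Scn4b, Cacna1h, Cacnb2, Cacna2d2, Cacna2d3 and Cacng4 among them, and 2 that were lower (Scn7a and Cacna1g). The labels do not say which libraries of the 2 regions came from the same mouse, so the fit treated them as independent. The regions also lie in separate ranges of library numbers and separate count tables, so that region and any difference in handling between those sets cannot be told apart. As in all bulk tissue, fewer cells of a type and less RNA per cell cannot be told apart either.

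**Figure D1:**
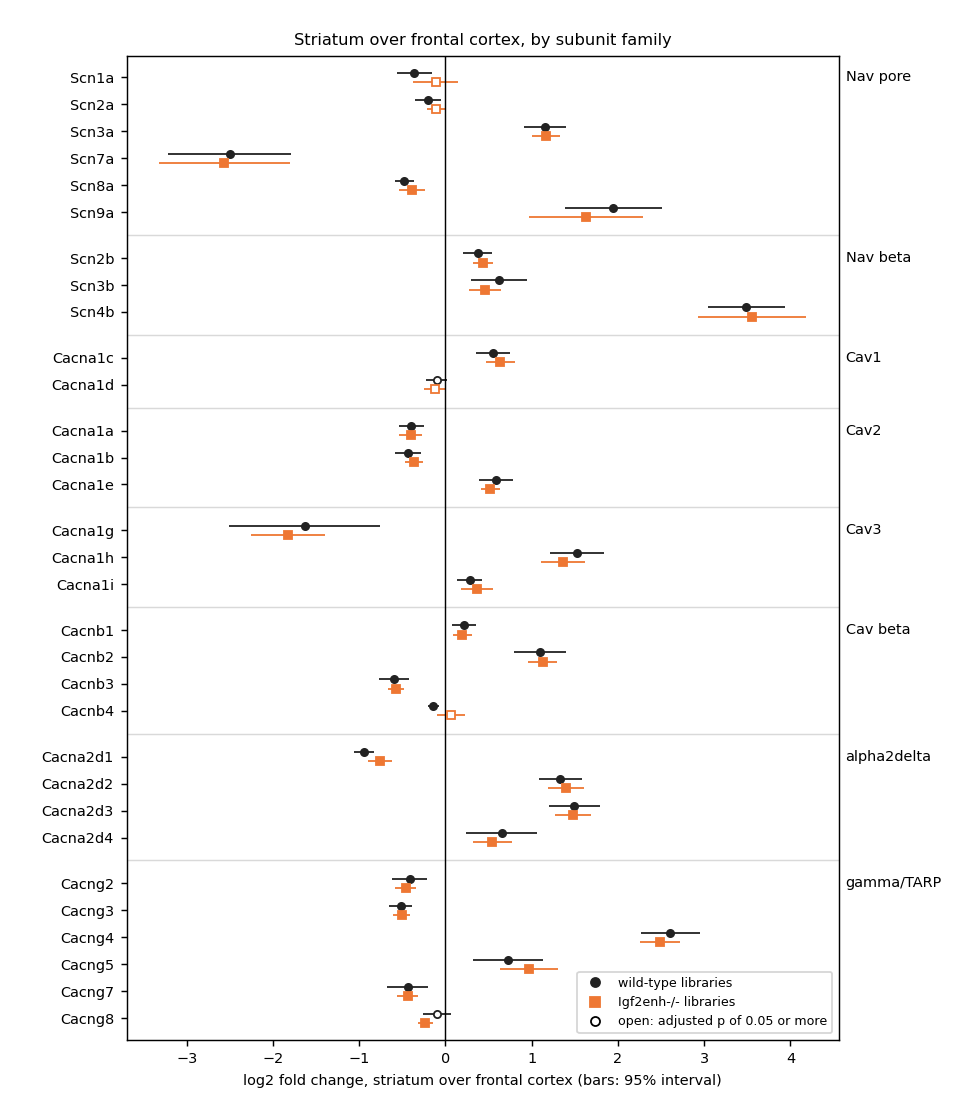
Log2 fold change of striatum over frontal cortex for channel genes tested, grouped by subunit family, in wild-type mice (black circles) and Igf2enh-/- mice (orange squares). Bars are 95% confidence intervals and open symbols mark an adjusted p of 0.05 or more. Scn4b and Cacng4 lie farthest to the higher side and Scn7a farthest to the lower side in both genotypes.

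Without the 6 libraries that stood apart (1, 9, 15, 19, 20 and 26) all at once, 33 of 34 members tested were called in wild-type mice, 18 higher and 15 lower, with Cacna1d and Cacng1 added. Cacng1 entered this fit through striatum alone, with 0 to 2 raw counts per frontal cortex library. Its call follows from that filter and adds no support. In Igf2enh-/- mice 30 of 33 were called, 17 higher and 13 lower, with Scn1a added. Over all genes 10505 of 14673 were called in wild-type and 9765 of 14710 in Igf2enh-/- mice in these fits.

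The pore-forming sodium channel genes differed in both directions. The 2 most abundant per kilobase, Scn8a and Scn2a, are the main channels of the axon initial segment of excitatory neurons. Scn8a had 44.2 CPM per kilobase in frontal cortex and 32.5 in striatum, and Scn2a 43.9 and 39.2, so that each gave between 34.5% and 41.6% of the summed per-kilobase level of its family in either region. Scn8a was lower in striatum by -0.48 (SE 0.0528) in wild-type and -0.39 (SE 0.0723) in Igf2enh-/- mice on the log2 scale. Scn2a was lower in wild-type mice (-0.20, SE 0.0676, adjusted p = 0.0179) and missed the threshold in Igf2enh-/- mice (-0.11, SE 0.0498, adjusted p = 0.0596). Scn1a, the main channel of fast-spiking interneurons, was lower in wild-type striatum (-0.36, SE 0.093, adjusted p = 0.00406), with a difference of -0.11 (SE 0.123, adjusted p = 0.428) in Igf2enh-/- mice. Library 1, with 104 CPM of Scn1a against 169 ± 35.4 CPM (SD, n = 6) in its group, entered only the Igf2enh-/- fit, and Scn1a was called in that fit without it.

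Scn3a, the channel best known from the embryonic brain, was the most clearly raised of the abundant pore-forming sodium channel genes. Its levels ran from 38.9 to 46.6 CPM (median 42.8) in wild-type and from 41.9 to 49.0 CPM (median 44.3) in Igf2enh-/- frontal cortex, and from 61.3 to 107 CPM (median 100.3) and from 80.8 to 119 CPM (median 97.5) in striatum. No striatal library overlapped the frontal cortex libraries, and library 20 was the lowest of the striatal ones. The striatal level was 2.22-fold (95% interval 1.88 to 2.62, adjusted p = 2.29e-06) and 2.24-fold (2.01 to 2.51, adjusted p = 5.95e-09) that of frontal cortex in wild-type and Igf2enh-/- mice. The gene gave 3.21% of the family's per-kilobase level in frontal cortex and 8.23% in striatum. Scn3a lies beside Scn2a on chromosome 2 at a distance of 53.2 kb, and after a gap of 503.3 kb Scn1a, Scn9a and Scn7a follow at gaps of 39.2 and 38.3 kb. Among these 5 genes Scn3a and Scn9a were higher in striatum and Scn7a lower in both genotypes, and Scn2a and Scn1a were lower in wild-type mice.

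Scn9a, known from nociceptors, was scarce in both regions. It had 1.1 to 1.97 CPM (median 1.42) in wild-type and 0.943 to 4.08 CPM (median 1.52) in Igf2enh-/- frontal cortex, against 2.12 to 7.47 CPM (median 6.45) and 3.32 to 10.3 CPM (median 5.78) in striatum. The groups were separate in wild-type mice and overlapped in Igf2enh-/- mice through library 1. The log2 difference was 1.95 (SE 0.262, adjusted p = 3.28e-05) and 1.63 (SE 0.309, adjusted p = 0.000252). Without the 6 libraries that stood apart the Igf2enh-/- difference was 2.09. Its highest striatal value came from library 19, 1 of the 2 with high Prkcd. The part of other tissue in that value was not tested.

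Scn7a, which encodes a sodium-sensing channel of glia and other cells that is not gated by voltage like its relatives, had the largest deficit in striatum among the 33 members tested. It had 2.03 to 4.33 CPM (median 2.82) in wild-type and 3.36 to 5.44 CPM (median 4.53) in Igf2enh-/- frontal cortex, against 0.202 to 1.1 CPM (median 0.446) and 0.203 to 2.31 CPM (median 0.58) in striatum. The groups did not overlap within a genotype. Frontal cortex levels were 5.67-fold and 5.91-fold those of striatum (log2 difference -2.50, SE 0.329, adjusted p = 2.69e-05, and -2.56, SE 0.354, adjusted p = 1.22e-05). Scn7a passed the filter through frontal cortex alone, and each striatal library held 5 to 62 raw counts of it. It was not tested where 1 CPM was required in every library of both regions. Cacng6, below the filter with all libraries, had -2.71 in the Igf2enh-/- fit without library 7. It entered that fit through frontal cortex alone, with 0 to 24 raw counts per striatal library.

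**Figure D2:**
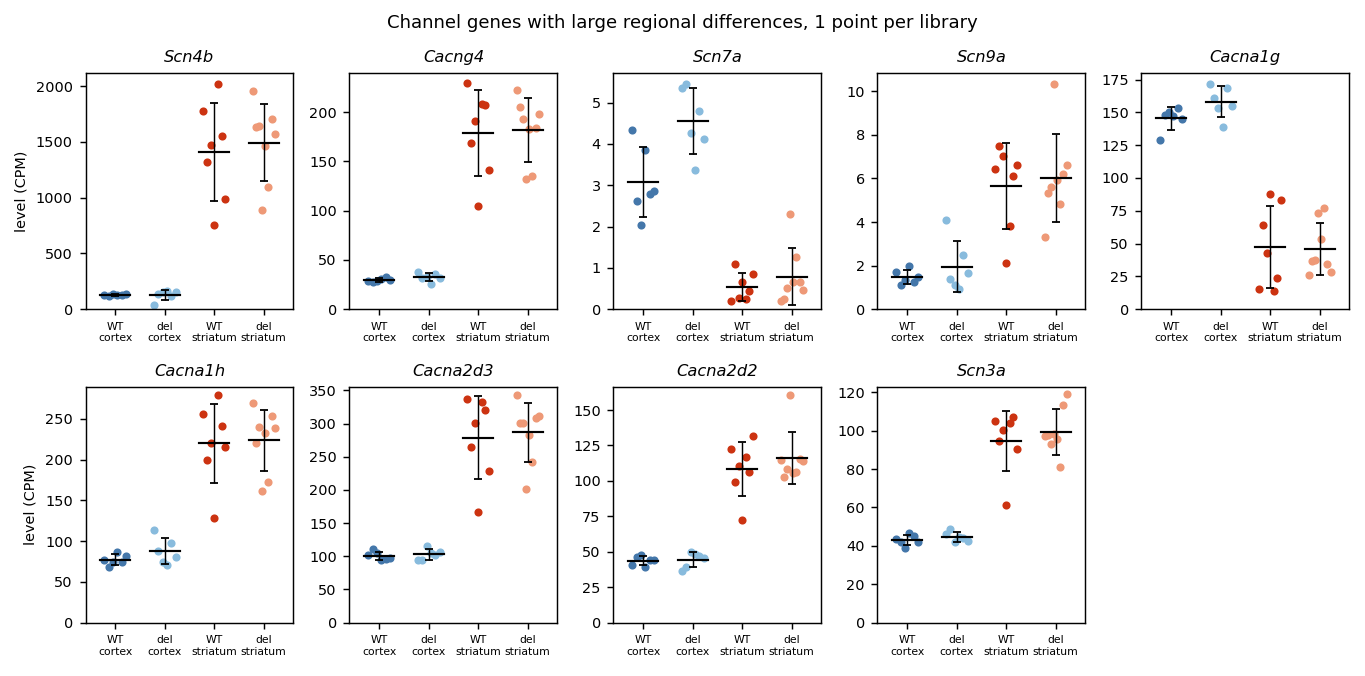
Level in CPM of 9 channel genes with large regional differences in both genotypes, 1 point per library, with the mean and SD of each group as a line and bar. Axes start at 0 and "del" stands for Igf2enh-/-. Scn4b runs from 757 to 2016 CPM in striatum and from 39.3 to 165 CPM in frontal cortex.

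The sodium channel beta genes held the largest regional difference of the 33 members tested. Scn4b, whose protein allows the resurgent sodium current of fast-firing neurons, had 117 to 136 CPM (median 125) in wild-type and 39.3 to 165 CPM (median 141) in Igf2enh-/- frontal cortex. In striatum it had 757 to 2016 CPM (median 1471) and 885 to 1958 CPM (median 1601). The lowest striatal library, 20, lay far above the highest frontal cortex library. The striatal level was 11.2-fold (95% interval 8.22 to 15.4, adjusted p = 6.97e-08) and 11.7-fold (7.59 to 18.1, adjusted p = 6.4e-08) that of frontal cortex. Scn3b and Scn2b, which like the other beta genes encode cell adhesion proteins with an immunoglobulin domain, were also higher in striatum, by 0.62 (SE 0.152) and 0.37 (SE 0.0795) in wild-type and 0.46 (SE 0.0859) and 0.43 (SE 0.0561) in Igf2enh-/- mice.

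Scn4b and Scn2b exchanged their order between the regions. Per kilobase, Scn4b had 25.7 CPM in frontal cortex and 295 CPM in striatum. Of the summed per-kilobase level of Scn2b, Scn3b and Scn4b, Scn4b gave 23.4% in frontal cortex (8.45% to 28.9% over 12 libraries) and 71.7% in striatum (62.0% to 77.2% over 15 libraries). Scn2b gave 52.7% (49.3% to 55.6%) and 19.0% (15.7% to 24.0%), and Scn3b 23.9% and 9.38%. Shares rest on exon lengths of an older gene annotation and are approximate, but a length common to all libraries cannot alter a gene's own regional ratio.

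Scn2b and Scn4b are neighbours on chromosome 9, 8.6 kb apart, and differed between regions by 1.29-fold and 11.2-fold in wild-type mice. The 250 bases before the start of each are shown because they belong to adjacent genes of 1 family with unlike regional levels. They are read 5′ to 3′ on the + strand of GRCm38.p6 (RefSeq), at chr9:45117626-45117875 for Scn2b and chr9:45138374-45138623 for Scn4b, and capitals mark matches to 4 motifs searched on both strands, the GC box GGGCGG, the CCAAT box CCAAT, the TATA box TATAAA and the cAMP response element TGACGTCA.
Scn2b: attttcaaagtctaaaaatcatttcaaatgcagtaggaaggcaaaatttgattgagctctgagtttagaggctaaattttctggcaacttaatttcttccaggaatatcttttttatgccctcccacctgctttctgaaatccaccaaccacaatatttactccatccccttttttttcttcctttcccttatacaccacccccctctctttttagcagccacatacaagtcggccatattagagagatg
Scn4b: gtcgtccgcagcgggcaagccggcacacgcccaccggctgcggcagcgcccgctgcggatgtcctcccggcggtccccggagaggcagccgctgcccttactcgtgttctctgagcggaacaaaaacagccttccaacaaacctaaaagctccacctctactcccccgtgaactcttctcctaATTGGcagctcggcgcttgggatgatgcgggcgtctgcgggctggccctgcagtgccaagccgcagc
The Scn4b stretch had 66.0% G and C and 23 CpG dinucleotides with 1 CCAAT box, read on the opposite strand as ATTGG. The Scn2b stretch had 38.4% G and C, 1 CpG and no match. Over all 32851 promoters of this length in the RefSeq table the medians were 52.4% G and C and 6 CpG, and 33.8% held a CCAAT box, 32.7% a GC box, 12.4% a TATA box and 1.55% a cAMP response element. Of the 41 promoters found for 30 of the members, 10 held a CCAAT box, 15 a GC box, 2 a TATA box and none a cAMP response element. A match describes letters in this window and no factor's binding.

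Among the L-type genes, Cacna1c, the main L-type pore of neurons and heart, was higher in striatum, by 0.56 (SE 0.0916, adjusted p = 0.000163) in wild-type and 0.63 (SE 0.0784, adjusted p = 4.02e-06) in Igf2enh-/- mice. Its mean level was 94.7 CPM in frontal cortex and 142 CPM in striatum. Cacna1d, the L-type pore that opens at lower voltages, had 70.6 and 64.7 CPM and missed the threshold in both genotypes (-0.10, SE 0.054, adjusted p = 0.107, and -0.13, SE 0.0568, adjusted p = 0.0617). Cacna1c gave 58.2% of the L-type per-kilobase level in frontal cortex and 69.5% in striatum.

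Of the genes that serve transmitter release, Cacna1a (P/Q-type) and Cacna1b (N-type) were lower and Cacna1e (R-type) was higher in striatum in both genotypes. Mean levels were 266 and 199.6 CPM for Cacna1a, 176 and 133 CPM for Cacna1b and 261 and 379 CPM for Cacna1e in frontal cortex and striatum. The log2 differences were -0.40 (SE 0.0667) and -0.40 (SE 0.0613) for Cacna1a and -0.43 (SE 0.0677) and -0.36 (SE 0.0497) for Cacna1b in wild-type and Igf2enh-/- mice. Those of Cacna1e were 0.58 (SE 0.0903) and 0.52 (SE 0.0512). The R-type gene gave 33.5% of the per-kilobase level of these 3 genes in frontal cortex, below Cacna1a at 37.8%, and 49.2% in striatum, above Cacna1a at 28.9%.

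The T-type genes went in opposite directions. Cacna1g had 129 to 153 CPM (median 148) in wild-type and 139 to 172 CPM (median 158) in Igf2enh-/- frontal cortex, against 14.3 to 87.9 CPM (median 42.6) and 25.8 to 77.2 CPM (median 37.1) in striatum. No striatal library reached the lowest frontal cortex library, and the wild-type striatal libraries were widely spread. Frontal cortex levels were 3.1-fold and 3.56-fold those of striatum (log2 difference -1.63, SE 0.403, adjusted p = 0.00306, and -1.83, SE 0.201, adjusted p = 1.17e-06). Without the libraries that stood apart the wild-type difference was -2.29. Cacna1h had 68.2 to 87.1 CPM (median 75.6) and 71.0 to 114 CPM (median 83.7) in frontal cortex, and 128 to 279 CPM (median 219.8) and 162 to 269 CPM (median 236) in striatum, also with no overlap. It was 2.88-fold higher (95% interval 2.31 to 3.58, adjusted p = 2.26e-06) and 2.57-fold higher (adjusted p = 9.41e-08). Cacna1i was higher by 0.28 (SE 0.0657) and 0.36 (SE 0.0864), from 155 to 192 CPM on average. Cacna1g gave 38.5% of the T-type per-kilobase level in frontal cortex and 10.3% in striatum, while Cacna1h gave 21.3% and 48.2% and Cacna1i 40.1% and 41.5%.

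**Figure D3:**
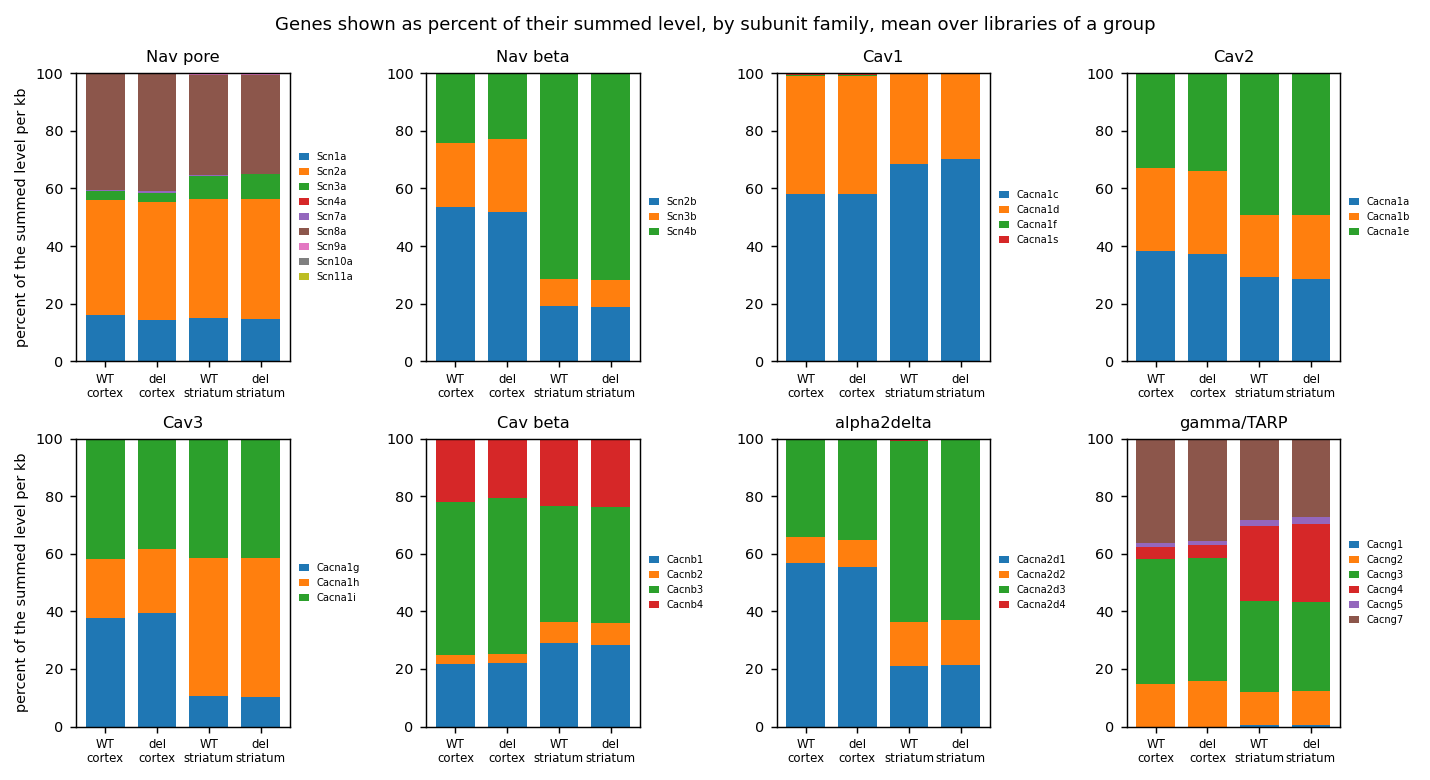
Share of each gene shown in the summed per-kilobase level of those of its subunit family, in percent, as the mean over the libraries of each of the 4 groups. Cacng6 and Cacng8 are left out because their gene models lack untranslated exons. In striatum the mean share of Scn4b exceeds that of Scn2b, Cacna1h that of Cacna1g and Cacna2d3 that of Cacna2d1, and in frontal cortex the reverse, in both genotypes.

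Of the calcium channel beta genes, Cacnb2 was higher in striatum by 1.09 (SE 0.139, adjusted p = 2.04e-05) in wild-type and 1.13 (SE 0.0778, adjusted p = 1.09e-08) in Igf2enh-/- mice, from a mean of 47.0 CPM to 101 CPM. Cacnb3 was lower by -0.59 (SE 0.0803) and -0.58 (SE 0.0424), from 280.2 to 185 CPM. Cacnb3 still had the largest share of the family's per-kilobase level in both regions, 53.6% and 40.3%. Cacnb1 was higher by 0.22 (SE 0.0643) and 0.20 (SE 0.0535), from 167 to 191 CPM. Cacnb4, the beta gene mutated in the lethargic mouse, was lower by -0.14 (SE 0.0283, adjusted p = 0.000743) in wild-type mice, with 0.06 (SE 0.077, adjusted p = 0.476) in Igf2enh-/- mice, and averaged 320 and 310.5 CPM. An antisense gene covers 16.03% of the exons of Cacnb4, and the strand setting of the counting is not given in the sources used here, so the reads of both cannot be told apart.

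The alpha2delta genes, whose products Cacna2d1 and Cacna2d2 bind gabapentin, also exchanged their order. Cacna2d3 had 94.8 to 111 CPM (median 99.3) and 93.8 to 115 CPM (median 104) in wild-type and Igf2enh-/- frontal cortex, and 167 to 337 CPM (median 301) and 201 to 343 CPM (median 301) in striatum. It was 2.81-fold higher (95% interval 2.29 to 3.45, adjusted p = 1.55e-06) and 2.79-fold higher (adjusted p = 6.36e-09) in striatum. Cacna2d2 had 39.4 to 47.6 CPM (median 44.1) and 36.2 to 49.9 CPM (median 46.3) in frontal cortex, and 72.2 to 131 CPM (median 111) and 103 to 160.4 CPM (median 111) in striatum. Neither gene overlapped between regions, and library 20 was the lowest wild-type striatal library for both. The log2 difference of Cacna2d2 was 1.33 (SE 0.115, adjusted p = 9.85e-07) and 1.40 (SE 0.0958, adjusted p = 1.01e-08). Cacna2d1 was lower by -0.94 (SE 0.0551, adjusted p = 6.43e-08) and -0.75 (SE 0.0646, adjusted p = 8.94e-08), from 379 to 210.2 CPM, again without overlap. Cacna2d4, known from retinal photoreceptors, was scarce at 2.62 and 3.94 CPM and higher by 0.65 (SE 0.191) and 0.54 (SE 0.105). Cacna2d1 gave 56.2% of the per-kilobase level of the 4 genes in frontal cortex (53.3% to 60.2%) and 21.1% in striatum (16.4% to 31.7%), while Cacna2d3 gave 34.2% (31.4% to 36.4%) and 62.8% (51.7% to 68.2%).

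A promoter window of 250 bases is shown for each of these 2 genes because they exchange the lead in their family. Both windows lie inside the gene as annotated, which starts at chr14:29722775 for Cacna2d3 and chr5:15934264 for Cacna2d1. They therefore do not precede the outermost start of either gene. Cacna2d3 is read on the - strand at chr14:29721865-29722114 and Cacna2d1 on the + strand at chr5:15934441-15934690 of GRCm38.p6 (RefSeq), with capitals marking the same 4 motifs.
Cacna2d3: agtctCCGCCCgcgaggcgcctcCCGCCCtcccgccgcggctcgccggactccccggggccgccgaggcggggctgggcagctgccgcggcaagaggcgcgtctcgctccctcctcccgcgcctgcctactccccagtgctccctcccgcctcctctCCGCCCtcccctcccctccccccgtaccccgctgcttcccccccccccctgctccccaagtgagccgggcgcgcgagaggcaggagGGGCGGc
Cacna2d1: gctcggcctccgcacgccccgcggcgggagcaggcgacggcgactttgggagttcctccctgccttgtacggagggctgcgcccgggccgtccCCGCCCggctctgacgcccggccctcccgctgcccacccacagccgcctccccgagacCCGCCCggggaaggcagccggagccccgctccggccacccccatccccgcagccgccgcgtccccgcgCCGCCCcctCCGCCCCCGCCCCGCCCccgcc
Both were rich in G and C (80.0% and 82.4%) and in CpG (30 and 36). Every marked match was a GC box, GGGCGG or CCGCCC, with 4 in Cacna2d3 and 6 in Cacna2d1. The genes with opposite regional differences were thus alike in these features.

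Among the gamma genes, Cacng4, a TARP, stood out. It had 27.7 to 32.4 CPM (median 29.1) in wild-type and 26.1 to 37.5 CPM (median 32.5) in Igf2enh-/- frontal cortex, and 105 to 229 CPM (median 191) and 132 to 222 CPM (median 189) in striatum. Regions were fully separate. The striatal level was 6.1-fold (95% interval 4.8 to 7.75, adjusted p = 8.39e-08) and 5.59-fold (adjusted p = 1.04e-10) that of frontal cortex. Cacng5, another TARP, was higher by 0.73 (SE 0.189) and 0.97 (SE 0.156), from 10.2 to 18.4 CPM. The TARPs Cacng2 (stargazin), Cacng3 and Cacng7 were lower in both genotypes, by -0.41 and -0.46, -0.52 and -0.51, and -0.44 and -0.44, with adjusted p of 0.00371 at most. Their mean levels were 168 and 123, 131 and 90.6, and 158 and 116 CPM in frontal cortex and striatum. Cacng8 averaged 53.0 and 46.8 CPM, and its difference was -0.10 (SE 0.0725, adjusted p = 0.249) in wild-type and -0.23 (SE 0.0411, adjusted p = 0.00013) in Igf2enh-/- mice. Cacng4 gave 4.37% of the family's per-kilobase level, Cacng6 and Cacng8 aside, in frontal cortex and 26.3% in striatum, whereas Cacng3 gave 43.1% and 31.2%. Cacng4 lies between Cacng1 and Cacng5 on chromosome 11, at gaps of 15.9 and 79.9 kb, and all 3 had more counts in striatum.

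The other 7 members fell below the filter and are given as raw counts. Cacng1, the gamma subunit of skeletal muscle, had 0 to 2 counts per frontal cortex library, with 0 in 9 of 12 libraries and 4 counts in all, and 12 to 56 counts per striatal library. Cacng6 went the other way, with 22 to 52 counts per library in frontal cortex and 0 to 24 in striatum. Scn10a and Scn11a, channels of sensory neurons, had 0 to 10 and 0 to 5 counts in frontal cortex and 2 to 21 and 3 to 20 in striatum. Scn4a and Cacna1s, the sodium and L-type pores of skeletal muscle, had 0 to 1 and 17 to 29 counts in frontal cortex and 0 to 4 and 6 to 27 in striatum. The retinal Cacna1f had 4 to 14 and 1 to 9 counts. Some of the 7 were tested where the filter or the libraries differed. Cacng1 and Cacng6 were called in both genotypes with edgeR's filterByExpr in place of the filter, higher and lower in striatum. Each passed only through the region where it was higher, so these calls follow from the filter and add no support. At these totals a gene with at most 3 counts in a library lies under 1 CPM and its level is not resolved.

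Within striatum, the levels of some channel genes followed the marker sums of the libraries. The 5 striatal libraries with the highest cortical projection neuron sum (20, 23, 16, 26 and 19) were also the 5 with the highest Cacna1g, Scn7a, Cacng6 and Cacng7. Scn7a and Cacng6 were below the filter in striatum, at 5 to 62 and 0 to 24 raw counts per library. Their order among libraries rests on few reads. The same 5 libraries had the lowest medium spiny neuron sum, so both orders set apart the same libraries. They were also the 5 with the lowest Scn4b, Cacng4, Cacna2d3, Cacna1h and Cacnb2. Of all 40 members, 18 shared 4 or 5 of the 5 libraries with either order and 22 shared 3 at most. Of those 22, 6 shared 2 at most with both. The like share over all genes is not given here. As a percentage of the medium spiny neuron sum, Scn4b varied little among striatal libraries, from 14.3% to 17.4%, while its level ranged from 757 to 2016 CPM. In frontal cortex the same ratio was 9.66% to 35.5%. Oligodendrocyte sums were 1038 to 2221 CPM in frontal cortex and 5084 to 11028 CPM in striatum. The part of cell makeup in the regional differences was not tested.

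**Figure D4:**
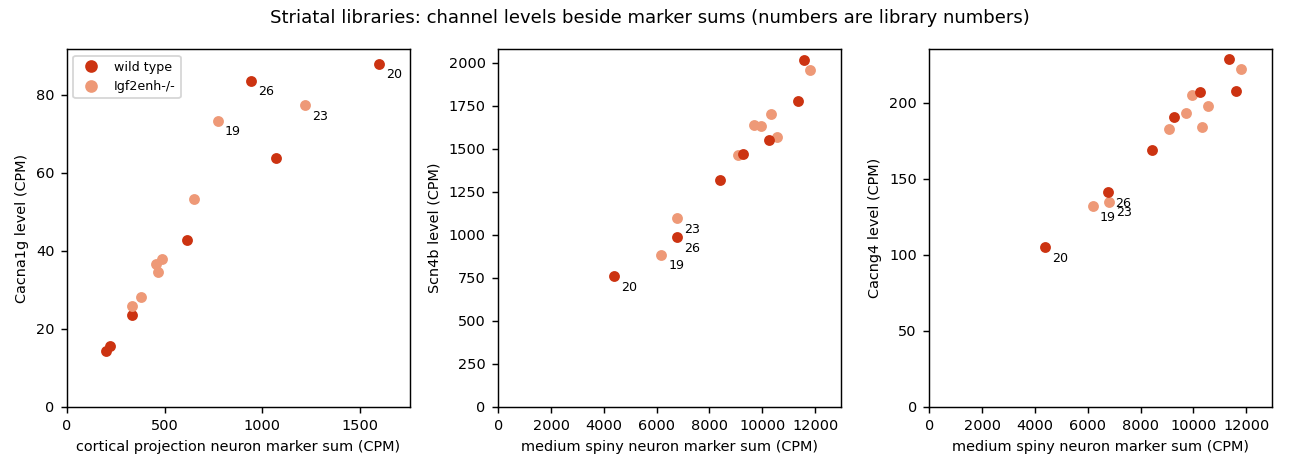
Levels in CPM of Cacna1g against the cortical projection neuron marker sum, and of Scn4b and Cacng4 against the medium spiny neuron marker sum, in the 15 striatal libraries, with libraries 19, 20, 23 and 26 numbered. Library 20 has the lowest medium spiny neuron sum (4368 CPM) and the highest Cacna1g (87.9 CPM).

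The next comparison asked whether loss of the enhancer altered the channel genes within a region. None was called in either. In frontal cortex 0 of 31 members tested were called, where 0.38% of all genes were, and 6 members had an unadjusted p under 0.05 (Scn1a, Scn7a, Scn3b, Cacna1g, Cacng3 and Cacng8), as did 1877 of all 13936 genes. Log2 fold changes of Igf2enh-/- over wild type ranged from -0.25 to 0.56 over the 31 members. The 95% interval lay within 0.5 of 0 on the log2 scale for 29 of 31 members, all but Scn7a and Cacna2d4. The estimate for Scn1a was -0.25 (SE 0.11, adjusted p = 0.343) with all libraries and -0.10 without libraries 1 and 9. In striatum 0 of 32 were called, where 0.036% of all genes were, and only Cacna2d4 of the members had an unadjusted p under 0.05, as did 1394 of all 13875 genes. The fold changes ranged from -0.33 to 0.13, and the interval lay within 0.5 of 0 for 26 of 32 members. The exceptions included Scn9a, Cacna1g, Cacna2d4 and Cacng5, for which a difference beyond 0.5 lay within the interval. Scn7a in striatum and Scn9a in frontal cortex were below the filter and were not tested for genotype. The counts were also 0 in both regions with edgeR's likelihood ratio test, with DESeq2, and without the libraries that stood apart.

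The smallest genotype p in frontal cortex belonged to Scn7a. The wild-type libraries (2, 4, 6, 8, 10 and 12) had 2.03 to 4.33 CPM (median 2.82) and the Igf2enh-/- libraries (1, 3, 5, 7, 9 and 11) had 3.36 to 5.44 CPM (median 4.53), so that the groups overlapped. The log2 fold change was 0.56 (SE 0.167, adjusted p = 0.165). Without the filter on low levels the adjusted p of Scn7a was 0.00617, and over the other alternatives run it lay between 0.0578 and 0.653. In the fit without that filter 459 of all 33060 genes were called. The meningeal fibroblast marker sum was 115 to 257 CPM in wild-type and 186 to 338 CPM in Igf2enh-/- frontal cortex. That sum includes Igf2 itself, which averaged 72.8 CPM in wild-type and 123 CPM in Igf2enh-/- frontal cortex. The sum is therefore not a measure of cell makeup alone, and its part in the value of Scn7a was not tested. Cacng8 had 49.7 to 54.3 CPM (median 50.4) in wild-type and 52.7 to 57.1 CPM (median 55.4) in Igf2enh-/- libraries, with a log2 fold change of 0.10 (SE 0.0331, adjusted p = 0.195). Cacng3 had 124 to 143 CPM (median 137) and 122 to 129.9 CPM (median 127), with -0.10 (SE 0.0341, adjusted p = 0.23). Both TARPs overlapped between genotypes.

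In striatum the 3 members of smallest p were Cacna2d4, Cacna2d1 and Cacnb4. Cacna2d4 had 3.33 to 6.01 CPM (median 4.39) in wild-type and 2.68 to 4.18 CPM (median 3.6) in Igf2enh-/- mice, with overlap, and a log2 fold change of -0.33 (SE 0.131, adjusted p = 0.422). Cacna2d1 had 182 to 227 CPM (median 195) and 191 to 266 CPM (median 214), with 0.12 (SE 0.0668, adjusted p = 0.585). Cacnb4 had 282 to 324 CPM (median 306) and 285 to 365 CPM (median 311), with 0.07 (SE 0.0555, adjusted p = 0.732). Scn4b, which led the regional comparison, averaged 1411 ± 437 CPM (SD, n = 7) and 1494 ± 346 CPM (SD, n = 8) in wild-type and Igf2enh-/- striatum, and 127 ± 7.52 CPM (SD, n = 6) and 127 ± 46.3 CPM (SD, n = 6) in frontal cortex. The lowest of the last group was library 1, at 39.3 CPM.

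**Figure D5:**
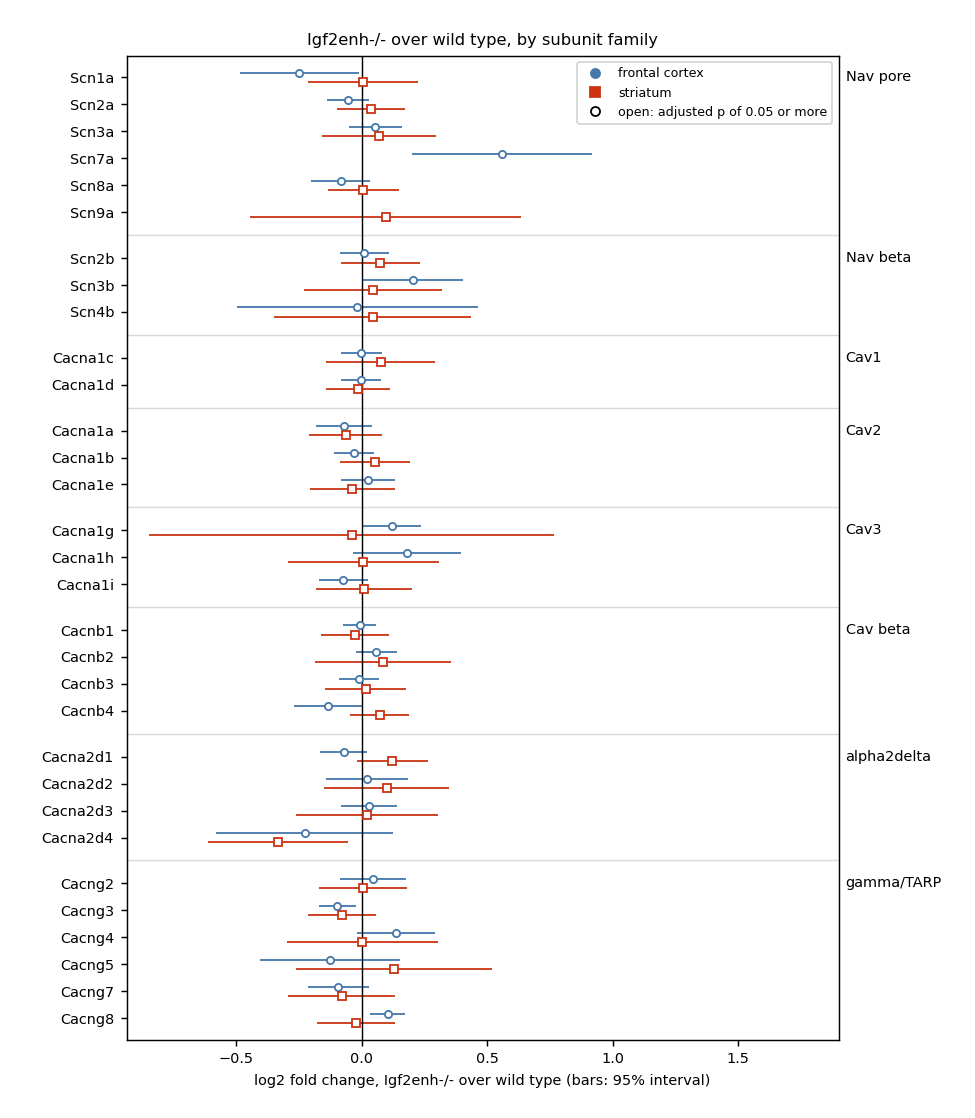
Log2 fold change of Igf2enh-/- over wild type for channel genes tested in frontal cortex and striatum, with 95% confidence intervals. None passed an adjusted p of 0.05 in either region, and Scn7a in frontal cortex has the largest estimate (0.56).

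Whether the genotype effect differed between regions was tested as an interaction term. None of the 33 members was called, as for all genes (0% of 14397 genes called by edgeR's quasi-likelihood test, with 418 genes at an unadjusted p under 0.05). The 2 members with an unadjusted p under 0.05 were Cacnb4 and Cacna2d1, at 0.20 (SE 0.0872) and 0.19 (SE 0.0873), both with an adjusted p of 1.00. The interval of the interaction lay within 0.5 of 0 for 21 of 33 members, and reached beyond 0.5 for the other 12, which include Scn4b, Cacna1g and Cacng4. The likelihood ratio test and DESeq2 also called 0 members. The genotype effect was also compared between females and males. In frontal cortex 0.0215% of all genes and none of the 31 members were called for this term, with 1 member, Cacng7, at an unadjusted p under 0.05. In striatum 0% of 13875 genes were called, 355 had an unadjusted p under 0.05, and Scn9a was the only one of the 32 members among them.

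Genes whose products work with these channels were described from lists of partners, of which 43 of 45 genes were matched. Of 11 sodium channel partners tested in wild-type mice, 6 were higher and 5 lower in striatum, where 66.6% of all genes tested were called. Nrcam, an adhesion molecule of the node and initial segment, was lower by -0.64, and Ank3, the ankyrin that gathers sodium channels at the initial segment, was higher by 0.51. The intracellular regulators of sodium channels Fgf13 and Fgf12 were lower by -0.73 and -0.96 and Fgf11 was higher by 0.97. Of 14 calcium channel partners tested in wild-type mice, 3 were higher, 7 lower and 4 not called, against the same 66.6% called over all genes. Of 12 tested in Igf2enh-/- mice, 1 was higher and 7 lower, where 69.1% of all genes were called. The active zone proteins Bsn and Rims1, which hold calcium channels near vesicles, were lower by -0.75 and -0.99 in wild-type mice. Of the channel genes that serve release, Cacna1a and Cacna1b were lower and Cacna1e was higher. Rem2, a small GTPase that inhibits calcium channels, was higher by 4.21 in wild-type (adjusted p = 3.24e-08) and 4.23 in Igf2enh-/- mice (adjusted p = 1.58e-11), more than any of the 33 channel genes tested. The calmodulin gene Calm3 was lower by -0.50. In the complex of the sodium leak channel, Nalcn and Unc79 were higher by 0.35 and 0.46 and Unc80 was lower by -0.17.

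The AMPA receptor genes and their other partners were listed because the TARPs act on these receptors. In wild-type mice 6 of 11 were higher and 3 lower in striatum, where 66.6% of all genes tested were called. In Igf2enh-/- mice 5 were higher and 3 lower, where 69.1% of all genes were called. Gria1 was higher by 0.67 and 0.57 and Gria3 and Gria4 were lower, by -0.50 and -0.50 and by -0.56 and -0.54, in wild-type and Igf2enh-/- mice. The auxiliary proteins Shisa7 (0.78 and 0.68) and Cnih2 (0.55 and 0.41) were higher and Cnih3 (-1.68 and -1.80) was lower. For genotype, none of the partner genes was called in either region. The smallest adjusted p among them was 0.135, that of Stac3 in striatum (-0.36), and in frontal cortex it was 0.207, that of Fgf13 (-0.12).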

How the data were processed

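The data are bulk RNA-seq libraries of mouse frontal cortex and striatum, sequenced as 75 bp single-end reads. Per the methods and processing notes, the authors used Trim Galore 0.5.0 for trimming and STAR for alignment to GRCm38 (GENCODE vM15), and deposited raw counts per gene, unfiltered. The strand setting is not given in the sources used here. The depth was 23686945 to 33926904 counts, which sets the counting error.

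The gene families and lists were set with earlier results of these data known, and members of the families were then taken by symbol. Symbols came from the Ensembl identifiers, with 1 member's symbol updated. Genes that reached 1 CPM throughout a region's libraries (in region comparisons, throughout those of either region) were normalized by TMM and tested with edgeR 4.0.16 in R 4.3.3 (quasi-likelihood F-test, Benjamini-Hochberg adjustment), with genotype and sex, or region and sex, as terms. Interaction terms were fitted likewise. Standard errors were derived from the F statistics. Genotype, region and sex were taken from the labels, and p-values measure the spread between libraries. Xist and Ddx3y counts matched the labelled sex in every library. Lengths came from GENCODE vM1 (NCBIM37), coordinates and promoters from RefSeq GRCm38.p6. Promoters of Cacna1a, Cacna1g, Cacna1h, Cacna2d4, Cacng1, Cacng4, Scn3a and Scn3b were not printed.

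The text gives the members, the values of libraries for the 3 members of smallest genotype p in each region and the 10 of largest region difference, and for partner lists up to 4 genes of smallest region p and up to 2 of smallest genotype p. Some genes are not reported here. They were kept in the fits and counts and left out of shares, plots and library checks. As alternatives, DESeq2 1.42.0 and the likelihood ratio test of edgeR were run, as were other scalings and filters, models without sex and leaving out libraries. The test was checked on simulated counts. Plots used matplotlib 3.10.9 (Python 3.11.15).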

Additional observations from a re-analysis of the deposited data

Results flagged for a closer look

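In 124 tests of a group's most distant library, over 31 members in 4 groups, 14 values lay farther from the rest than Dixon's 95% critical value allows, where chance gives about 1 in 20. Most came from a few libraries.

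Library 20, the wild-type striatal library with the lowest medium spiny neuron sum, had 4. It was the lowest of its group for Scn3a (61.3 CPM, others 90.3 to 107), Scn3b (85.6 CPM, others 173 to 191), Cacna1c (95.4 CPM, others 136 to 154) and Cacna1e (273 CPM, others 382 to 446). All 4 values lay toward the frontal cortex level, and that of Scn3b lay beyond it, below every frontal cortex library (98.7 to 159.5 CPM). Library 23 (Igf2enh-/- striatum), with the second highest cortical projection neuron sum, was also the lowest of its group for Scn3b (144 CPM, others 170.4 to 188).

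Libraries 19 (Igf2enh-/-) and 26 (wild type), the striatal libraries with high Prkcd, were both highest of their groups for Cacng5 (29.9 CPM, others 15.8 to 20.7, and 30.9 CPM, others 11.1 to 17.6). Library 19 was also highest for Scn9a (10.3 CPM, others 3.32 to 6.62) and Cacna2d2 (160.4 CPM, others 103 to 116) and lowest for Cacna1i (132 CPM, others 187 to 211) and Cacng2 (106 CPM, others 121 to 133). Their sums of olfactory bulb markers, 73.7 and 66.9 CPM, and of the thalamus markers other than Prkcd lay within or just below those of the other striatal libraries. Sp8, 1 of the 6 olfactory bulb markers, had 9.75 and 8.44 CPM in libraries 19 and 26, against 0.782 to 2.44 CPM in the other 13. Another of them, Eomes, was also highest in libraries 19 and 26 among the striatal libraries, at 2.79 and 0.698 CPM. The part of other tissue in the channel gene values was not tested.

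In frontal cortex, library 1 (Igf2enh-/-) had the lowest Cacna1a (216 CPM, others 259 to 274), library 2 (wild type) the lowest Cacna1g (129 CPM, others 145 to 153) and library 9 (Igf2enh-/-), which had the highest olfactory bulb sum, the highest Cacng5 (14.3 CPM, others 7.36 to 9.75).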

How the results depend on the processing

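Over the alternatives run, 128 of 130 counts of called members stayed within 1.5 times the reported count, and 579 of 580 values of single genes kept their direction and their side of the threshold. Without a filter on low levels, 2 of 40 members were called for genotype in frontal cortex (Scn7a, adjusted p = 0.00617, and Scn1a), and 2 were called for the sex by genotype term there (Scn4b among them). Calls over all genes also rose without the filter, to 459 of 33060 for genotype and 310 of 33060 for the sex by genotype term. With it they were 53 and 3 of 13936. With 1 library left out at a time, the number of members called was 0 to 0 for genotype in either region and for the region by genotype term. It was 31 to 33 for region in wild-type mice and 29 to 31 in Igf2enh-/- mice. Over all alternatives these region counts ran from 30 to 36 and from 27 to 35. Calls near the threshold rested on single libraries. In wild-type mice Cacna1d was called without library 16 or 26 and Cacng8 without library 26. In Igf2enh-/- mice Scn1a was called without library 1, Cacna1d without library 11, 23 or 25, and Scn2a without library 25. Leaving out the libraries that stood apart was chosen after seeing the data. No paired analysis was possible because the labels number every library separately and tie no libraries to a shared mouse. Depth limits the 7 members below the filter, which only some of the alternatives tested.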
